A study of Bos taurus with 10 samples.

Results

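The sites described here are the cytosines outside CG whose methylation level differed most between bovine tissues. They were the CHG and CHH cytosines of the autosomes (H stands for A, C or T) that were covered by 8 or more reads in all 10 tissues and whose highest and lowest tissue differed by 50 or more percentage points. There were 263 such sites among 95338 non-CG cytosines with that coverage, that is 0.276 %, while 4466 of the 51227 covered CG sites (8.72 %) passed the same range. The sites were chosen by their measured levels, so these are given as a description, and tests were run only on other quantities, namely the reads of the opposite strand, of the nearest CG and at the next cytosine. Reads at the nearest CG and at the next cytosine can be the same reads that cover the site.

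DNA was measured by reduced representation bisulphite sequencing (RRBS) in 1 library from each of 10 tissues of cattle of 1 Hereford family. Adult females gave the skeletal muscle, the uterus, the nucleated blood cells and, on d 90 of lactation, the lactating mammary gland. Juvenile females gave the mammary parenchyma, frontal cortex, abomasum and ileum. Testis was from an adult male and rumen from a male fetus, and the animal behind each tissue is not given in the sources used here. With 1 library per tissue, a difference between tissues cannot be told apart from a difference between animals, stages, sexes or libraries, and tests on reads compare libraries.

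Bisulphite turns unmethylated cytosines into bases read as T, and the level is the share of reads that kept a C. In mammals most methylated cytosines lie in CG, where both strands carry a cytosine and maintenance methylation copies the mark after replication. Methylation outside CG is known mainly from neurons, oocytes and pluripotent cells, where the de novo enzymes place it, and it is low in most other tissues. CAG and CTG are CHG contexts with a CHG cytosine on the opposite strand, whereas the opposite cytosine of CCG belongs to a CG. The context was taken from the reference sequence, and the deposited levels do not show whether an animal carries another base there.

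The sequences below come from the letters deposited with the cytosines (UMD3.1, 5′ to 3′ on the strand of the site), and the capital marks the variable site. The first 4 are sites where reads at the next cytosine, or the level of the cytosine on the opposite strand, moved against the level of the site. The fifth, on chromosome 3, is a cytosine directly before CCGG, the sequence cut by MspI, where abomasum stood alone. In the last, on chromosome 25, 4 variable sites lie on 1 strand.
chr29:19417770-19417820, forward: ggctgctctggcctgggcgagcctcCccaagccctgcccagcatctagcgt
chr8:61266453-61266496, forward: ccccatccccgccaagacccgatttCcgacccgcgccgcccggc
chr23:19996556-19996604, reverse: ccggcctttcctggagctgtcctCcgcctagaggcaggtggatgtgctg
chr18:42370628-42370671, reverse: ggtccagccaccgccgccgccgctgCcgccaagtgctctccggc
chr3:55619014-55619064, forward: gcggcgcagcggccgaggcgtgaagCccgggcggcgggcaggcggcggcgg
chr25:32367385-32367431, reverse: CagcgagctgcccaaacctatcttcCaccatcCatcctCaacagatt

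Of the 263 sites, 74 were CHG (0.191 % of the CHG sites covered in all tissues) and 189 were CHH (0.335 %). They lay on all 29 autosomes. The letter after the site was C at 141 sites, A at 69 and T at 53. A followed the cytosine at 26.2 % of the variable sites and at 19.3 % of the other non-CG sites, and C at 53.6 % and 57.9 %. The forward strand of the reference held 178 of the variable sites (67.7 %), against 46.4 % of all covered non-CG sites.

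These sites were far more methylated than non-CG cytosines in general. The mean over the 10 tissues had a median of 42.6 % among the variable sites and of 0.412 % among all covered non-CG sites, a gap that the range of 50 points requires in part. At 180 sites the mean lay between 20 and 80 %, at 43 below 20 % and at 40 above 80 %. The range had a median of 60 points, and it was below 60 points at 131 sites and 80 points or more at 27. The 95 % intervals given below are Wilson intervals and reflect counting error alone, and copies made by PCR were counted like other reads.

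Many variable sites sat close to the threshold. A range of exactly 50 points was found at 21 sites, among them a CTG site at chr10:67985057 with 50 % of 8 reads in abomasum and 0 % in the other 9 tissues. The sites at chr13:31604066 and chr15:26594543 also showed a range of 50 points, the first with its highest level in nucleated blood cells and the second in testis. Just outside were chr19:23185117 with 49.9 points, chr27:37600329 with 49.6 points and chr25:32367677 with 49.6 points. Coverage was shallow at many sites, and 63 of the 263 had 20 or more reads in all tissues. The median coverage of the variable sites was 19 reads in abomasum and between 30 and 40 reads in the other tissues.

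Most variable sites stood by themselves. Of the 263 sites, 230 were lone, meaning that no other variable site within 50 bp on either strand followed the same tissue pattern (Pearson's r of 0.8 or more over the 10 tissues), and 33 had such a like neighbour. Around 220 of the lone sites there were other covered non-CG sites on the same strand within 50 bp, with a median of 10 per site. Their levels were low and flat, with a mean of 0.969 % and a range of 3.1 points (medians over the lone sites). At the typical lone site a single cytosine thus varied while its non-CG neighbours stayed near 0.

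The 5 lone sites with the widest gap, among those with 20 or more reads in every tissue, each put 1 tissue apart. The widest was the CHH site at chr29:19417795, shown above. It was methylated at 87.4 % in the lactating mammary gland (95 % interval 78.8 to 92.8 %, 87 reads). Its level was 0 % in skeletal muscle, testis, mammary parenchyma, ileum and rumen, 1.89 % in nucleated blood cells, 2.78 % in abomasum, 2.86 % in uterus and 3.28 % in frontal cortex. No other tissue came within 84 points of the lactating gland.

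At chr7:105905429, a CAC site, the lactating mammary gland was again high, with 86.8 % of 38 reads. Testis followed at 25 %, and the other 8 tissues lay between 4.0 and 8.37 %, with 60 to 203 reads. At the CCG site chr6:89206125 abomasum was low, with 13.3 % of 60 reads (6.91 to 24.2 %). Skeletal muscle had 75 %, frontal cortex 80.8 % and the other 7 tissues between 89.2 and 100 %. Thus abomasum was apart from all other tissues there, and the nearest was 61.7 points higher. At the next cytosine, a CG, abomasum had 94 reads against 60 at the site, and nucleated blood cells 37 at both. This CG moved the other way, with 64.9 % in abomasum and 24.3 % in nucleated blood cells. What this means for the level of the site was not tested.

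Testis was alone at the CCG site chr25:32362155, one of the most deeply covered. The level was 62.0 % of 442 reads in testis (57.4 to 66.4 %), 10.5 % of 676 reads in ileum and between 1.51 and 3.37 % in the other 8 tissues, on up to 3548 reads. The site is the first C of a CCGG, the sequence cut by MspI. At the next cytosine 29 reads were recorded in testis and 8 in mammary parenchyma, against 442 and 2913 at the site. What this means for its levels was not tested. At chr13:886321, a CAA site, abomasum had 81.3 % of 155 reads (74.4 to 86.6 %). The other tissues there ranged from 4.17 % in rumen to 31.1 % in ileum, so the 9 of them differed among themselves too.

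Sites with 1 tissue apart were the larger share. When the ordered levels of a site were parted at their widest gap, 1 tissue stood alone above the others at 67 sites and alone below at 92, and at 104 sites several tissues lay on each side. Abomasum was alone at the low end of 42 sites and at the high end of 17. Testis was alone low at 26 and alone high at 14, and the lactating mammary gland at 14 and 11. Nucleated blood cells were alone high at 9 sites and low at 2. Each of the other 6 tissues was alone at 6 or fewer sites in all. Abomasum had the fewest reads per non-CG site (median 13, against 33 to 48 in the other tissues), and without its levels 192 of the 263 sites kept a range of 50 points. The part of its low coverage in these counts was not tested.

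**Figure D1:**
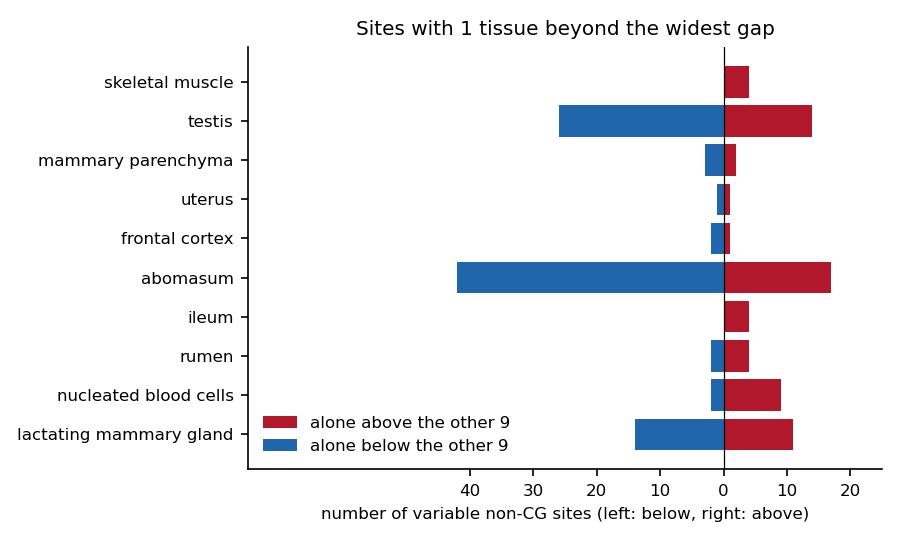
Number of variable non-CG sites (horizontal axis) at which each tissue (rows) lay alone beyond the widest gap in the ordered levels. Bars to the left count sites where the tissue was below the other 9, bars to the right sites where it was above. Abomasum, with 42 sites below, and testis, with 26, had the longest bars to the left.

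For each tissue, the site with 10 or more reads everywhere and the widest gap was looked at. Rumen stood at 87.5 % of 16 reads at the CTG site chr6:45742093, while the other tissues had 10.5 to 35.3 %. Nucleated blood cells had 66.3 % of 172 reads at the CCG site chr13:49020904, where the other 9 tissues lay between 5.26 and 28.0 % on 177 or more reads. Ileum was fully methylated, with 100 % of 87 reads, at the CCG site chr20:14758240, and the others ranged from 31.6 to 61.3 %. Skeletal muscle had 72.7 % of 682 reads at the CTT site chr29:19443471, against 6.78 to 41.3 % in the other tissues.

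Testis was alone high at chr9:104081046, a CCA site, with 63.0 % of 27 reads and 0 to 3.70 % elsewhere. Mammary parenchyma was alone low at the CCC site chr4:41483393, with 35.4 % of 48 reads, while the others had 67.7 to 99.4 %. Abomasum was alone low at the CCC site chr8:101018133, with 25 % of 12 reads and 96 to 100 % elsewhere. Frontal cortex had 41.7 % of 12 reads at the CAG site chr24:3564642, with 76.9 % or more elsewhere. Uterus had 53.3 % of 15 reads at the CTC site chr25:30364777, with 36.4 % in frontal cortex and 35.3 % in rumen, the nearest tissues.

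The 33 sites with a like neighbour lay very close to it. They formed 18 like pairs, of which 17 were on the same strand and 14 were within 8 bp, and the longest distance was 15 bp. Cytosines that close on the same strand lie largely on the same reads, so the levels of such pairs are not independent. At 28 further sites another variable site lay within 50 bp without a like pattern. Chaining sites within 50 bp gave 229 places, of which 27 held more than 1 variable site.

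The largest chain held 5 sites within 39 letters of chromosome 25 and its sequence is printed above. From 5′ to 3′ on the reverse strand, the site at chr25:32367431 came first, followed by those at 32367406, 32367399 and 32367393, and the site at 32367422 was on the forward strand. The last 3 on the reverse strand rose and fell together (r of 0.94 to 0.98). At 32367406 the level was 15.5 % in the lactating mammary gland, 41.8 % in testis, 65.4 % in rumen and 71.1 to 91.0 % in the other 7 tissues, on 79 to 446 reads. At 32367399 the lactating mammary gland had 4.54 %, testis 17.7 % and nucleated blood cells, the highest, 69.7 %. At 32367393 the same tissues had 10.9, 17.7 and 61.5 %. The 3 neighbours thus kept the same lowest and highest tissue at different heights.

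The other members of that chain were less alike. At chr25:32367431 ileum had 100 % of 134 reads and the next tissue 64.8 %. Ileum had 268 reads at each of 32367406, 32367399 and 32367393 on the same strand. The other tissues had nearly as many reads at 32367431 as at those sites. What this means for the level in ileum was not tested. At 32367422, the CAG site on the forward strand, the lactating mammary gland had 0 % of 20 reads, and uterus, the highest, 62.1 % of 95. Its correlation with the 3 grouped sites was between 0.74 and 0.78, below the limit for a like neighbour.

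In 3 of the other 4 largest chains a pair of sites was alike and the remaining site was not. On chromosome 26, abomasum was the lowest tissue at both CCC sites, with 15.3 % at 40478045 and 17.2 % at 40478053, and the others had 52.8 to 88.7 % and 65.3 to 91.7 %. Only 8 bp before the first of them, at 40478037, the order was different, with 97.4 % in nucleated blood cells and 42.9 % in frontal cortex at the ends and 75 % in abomasum. On chromosome 4, the sites at 41475523 (forward) and 41475532 (reverse) formed the only like pair on opposite strands (r = 0.83). The lactating mammary gland had 69.0 and 66.7 % there, and 0 % of 12 reads at 41475571. On chromosome 10, the sites at 59479908 and 59479923 were low in testis (13.3 and 27.3 %), while at 59479960 abomasum had 63.9 % and testis 2.63 %. The 3 sites of the chain on chromosome 29, between 19443471 and 19443556, did not follow one another (r of 0.25 or less). Skeletal muscle, alone high at the first of them, had 46.7 and 83.1 % at the others.

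Some windows of 100 kb held several variable sites. Of the 3376 windows with covered non-CG sites, 178 had a variable site. Of these 178, 16 held 3 or more, 76 sites in all, and sites of 1 chain count separately here. The 16 windows held 28.9 % of the variable sites and 6.01 % of all covered non-CG sites. They were picked by their variable sites, so these shares are a description. A window on chromosome 29 held 11, out of 1364 covered non-CG sites, and these lay between 19414696 and 19443556. A window on chromosome 25 held 10 of 314, between 32362155 and 32379327, of which 5 form the chain described above, and a window on chromosome 4 held 9 of 796, between 41465304 and 41497550. No annotation of UMD3.1 was used here, so these places are given by coordinates alone.

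Levels near 0, 50 and 100 %, as an animal with 0, 1 or 2 copies of a base would give, were then looked for. A level counted as near a step when it was within 10 points of 0 or 100 % or within 15 points of 50 %, which covers 50 % of the scale. Of the 2630 single levels of the variable sites, 63.1 % were near a step, with 18.0 % near 0, 30.5 % near 50 and 14.6 % near 100 %. The levels of the 4466 variable CG sites were near a step in 51.4 % of cases, with 6.97, 28.3 and 16.1 %. The difference between both kinds of site was mostly at 0.

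**Figure D2:**
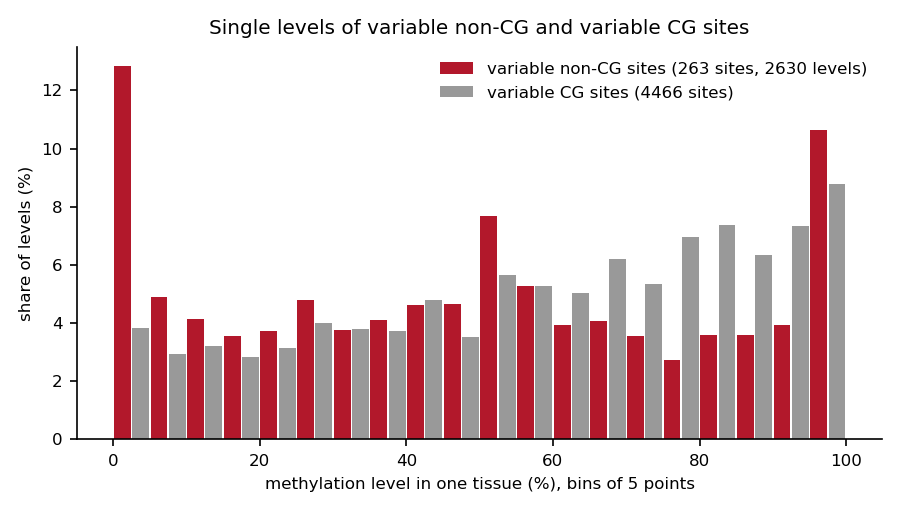
Share of single levels (vertical axis, %) in bins of 5 points of methylation level (horizontal axis, %) for the 263 variable non-CG sites (2630 levels) and the 4466 variable CG sites. The non-CG sites had 12.9 % of their levels below 5 % and 10.6 % at or above 95 %, with a smaller peak of 7.68 % between 50 and 55 %, and the CG sites had 3.83, 8.78 and 5.66 %.

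All 10 levels were near a step at 29 of the 263 sites (11.0 %) and at 115 of the variable CG sites (2.58 %). No site showed all 3 steps, and 25 of the 29 were lone, as were 230 of all 263 variable sites. At 18 of them 1 tissue stood alone. Abomasum was below the others at 10 and above at 2, testis above at 4 and below at 1, and the lactating mammary gland above at 1. At the remaining 11 several tissues lay on each side. The steps were read at shallow depth, as only 1 of the 29 sites had 20 or more reads in every tissue. Step sites with abomasum lowest included cytosines directly before CCGG, a kind of site described below. Examples are chr3:55619039 and chr18:32954291, with 12 and 8 reads in abomasum. Whether the animals differed in sequence at the 29 sites was not tested.

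**Figure D3:**
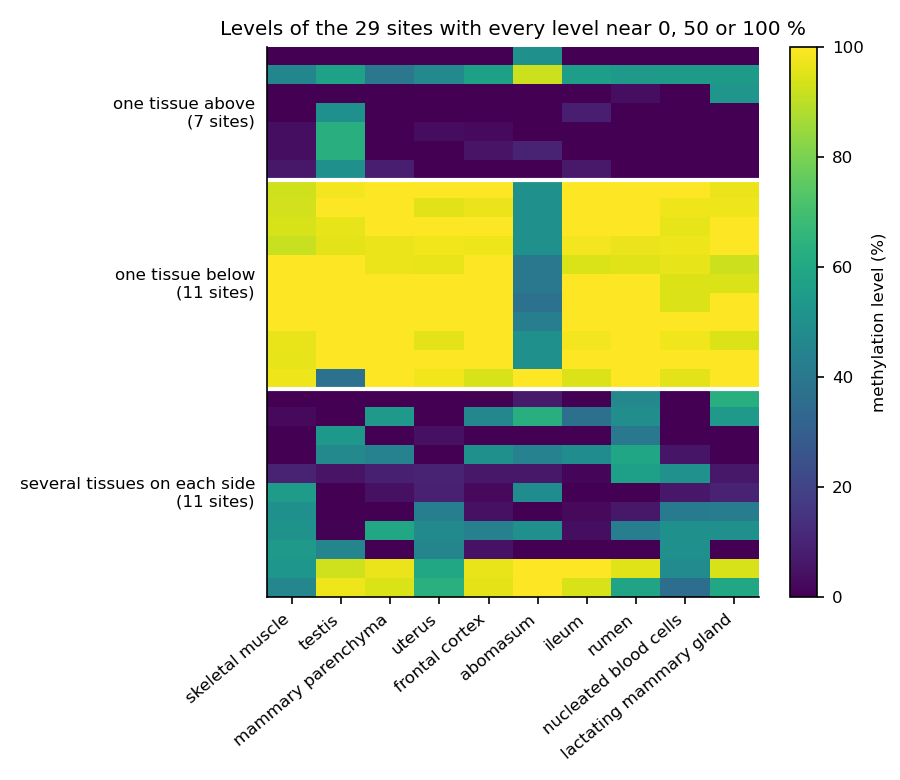
Methylation level (colour, %) of the 29 variable non-CG sites with every level near 0, 50 or 100 %, with sites as rows and tissues as columns. In the middle block of 11 sites 1 tissue lay below the others, and in 10 of these rows it was abomasum.

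Among the 11 sites with several tissues on each side, some sets of tissues recurred. Those given here were chosen after their values were seen. At the CAA site chr2:135635054 the level was 52.6 % in skeletal muscle, 59.5 % in uterus and 48.4 % in nucleated blood cells, and 92.9 to 100 % in the other 7 tissues. At the CAC site chr19:61631673 the same tissues had 50, 42.9 and 41.4 %, the lactating mammary gland had 42.3 %, and the other 6 tissues had 0 to 6.25 %. At the CAC site chr21:66882091 skeletal muscle had 2.63 % and testis, uterus and nucleated blood cells had 0 % of 56 or more reads. The other tissues had 36.8 to 62.5 % there, including all 4 tissues from juvenile females.

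Pairs of tissues were then compared over all 263 sites. The mean difference in level between 2 tissues was smallest for mammary parenchyma and frontal cortex (11.9 points), followed by skeletal muscle and uterus (12.7 points). Over the 104 sites where no tissue was alone, these pairs again had the smallest mean differences, 14.0 and 15.8 points. Over the variable CG sites, mammary parenchyma and frontal cortex differed by 21.04 points and came 26th of the 45 pairs, while skeletal muscle and uterus came 5th with 16.8 points. Across the 45 pairs, which share tissues, the mean differences over the non-CG and the CG sites had an r of 0.44. The largest was between testis and abomasum (34.7 points), and the median over the pairs was 19.6 points. Over the 104 sites where no tissue was alone, testis and abomasum differed by 27.6 points and came 30th, and the largest difference was between abomasum and nucleated blood cells (34.7 points).

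The opposite strand gives reads that the choice of a site did not use. For 25 of the CHG sites the opposite cytosine was covered in all 10 tissues, and its reads were compared between the highest and the lowest tissue of the site by Fisher's exact test (two-sided), with Benjamini-Hochberg adjustment over the 15813 CHG cytosines with a covered partner. A call required an adjusted p below 0.01 and a difference of 25 points or more. None of the 25 was called higher in the tissue where the site was higher (background 1.27 %), and 1 was called lower (background 0.613 %). Without adjustment, p was below 0.05 at 2 opposite cytosines that were higher and at 1 that was lower. At 11 of the sites the opposite cytosine is a CHG cytosine, and none of these was itself a variable non-CG site. At the other 14 it is a CG cytosine and so could not be one. The CG partners of chr18:42370646 and chr8:61266447 ranged by 62.5 and 56.5 points between tissues.

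At the 11 CAG or CTG sites with a covered partner the opposite CHG cytosine was nearly unmethylated. Its mean level had a median of 0.674 % (0 to 11.1 %), while the sites had a median of 36.9 %. At chr29:19432051, a CTG site with 42.9 % of 14 reads in abomasum and 100 % in the other 9 tissues, the opposite cytosine had 0 to 3.57 % in every tissue, on 26 to 136 reads. The largest change at such a partner was at chr4:41466596, with 16.0 % in nucleated blood cells and 0.847 % in the lactating mammary gland (adjusted p = 0.0849, Fisher's exact test). No change at the partner of these 11 sites was called at this depth.

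The 14 CCG sites have a CG cytosine as partner, and its level was high, with a median of 70.8 % (14.4 to 99.1 %). The called one was chr18:42370646, a CCG site of the reverse strand shown above and named after its values were seen. The site had 53.8 % in skeletal muscle, 45.5 % in testis, 45.5 % in uterus and 50 % in nucleated blood cells, on 11 to 44 reads, and 0 to 4.76 % in the other 6 tissues. The CG cytosine on the opposite strand had 46.4 % in skeletal muscle, 37.5 % in testis, 47.9 % in uterus and 40.9 % in nucleated blood cells, and 94.1 to 100 % in the other 6 (adjusted p = 0.000122, Fisher's exact test between skeletal muscle and ileum). The same 4 tissues thus held the intermediate level on both strands, from above and from below.

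The number of reads at the next cytosine was not used to choose a site, and its comparison was added after the data were seen. Where a C follows the site on the same strand, reads at the site can also cover that C. The reads recorded at the next cytosine were divided by those at the site. At sites not called below with fewer reads, this ratio had a median of 100 % in the highest tissue. It was far higher at some sites named above and far lower at chr25:32362155. Nucleated blood cells had 1522 reads at the next cytosine and 172 at chr13:49020904, and 218 and 11 at chr4:41475532. What this means for the levels of these sites was not tested. A ratio above 100 % was tested as 100 %, so such a surplus did not count in the test. The ratio could be tested at 111 sites, between the highest and the lowest tissue, by Fisher's exact test as above but adjusted over 36281 non-CG sites followed by a recorded C. Fewer reads at the next cytosine in the higher tissue were called at 15 of the 111 sites (13.5 %, background 0.449 %) and more reads at 3 (background 0.334 %). All 15 were lone, as were 230 of all 263 variable sites. The 3 called with more reads include 2 sites named above. At chr4:41483393 mammary parenchyma, the lowest, had 24 reads at the next cytosine and 48 at the site, and testis 5149 and 5165. At chr10:59479960 abomasum, the highest, had 114 and 61, and ileum, the lowest, 262 and 482. What this means for their levels was not tested. Where an unrecorded next cytosine was taken as 7 reads, the most it can have had, the calls of fewer reads were 23 of 141 (background 0.541 %), and without abomasum they were 11 of 74 (background 0.422 %).

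At these 15 sites the next cytosine had a median of 37.0 % of the reads of the site in the highest tissue and 100 % in the lowest. The level and the ratio ran against each other at each of the 15, with r between -0.997 and -0.619 over the tissues recorded, and a median of -0.969. These values are a description, since level and ratio share the reads of the site.

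At chr29:19417795 in the lactating mammary gland, 12 reads were recorded at the next cytosine and 87 at the site, a ratio of 13.8 % beside the level of 87.4 %. In the other 9 tissues the ratio was 95.8 to 107 % (adjusted p = 8.62e-33, Fisher's exact test against skeletal muscle). At chr8:61266478, a CCG site, ileum had a level of 71.3 % and a ratio of 24.5 %, frontal cortex 55.6 and 38.9 %, and mammary parenchyma 54.2 and 37.5 %. The other 7 tissues had levels of 0 to 12.5 % and ratios of 89.6 to 100 % (adjusted p = 5.89e-06, Fisher's exact test, ileum against uterus). At chr23:19996581 the level was 63.6 % in ileum, 51.0 % in testis, 49.2 % in mammary parenchyma, 31.9 % in frontal cortex and 23.9 % in abomasum, with ratios of 21.8, 32.7, 38.1, 42.9 and 71.7 %. It was 0 to 2.38 % in the other 5, with ratios of 97.6 to 120 % (adjusted p = 5.04e-16, Fisher's exact test, ileum against the lactating mammary gland).

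At the first 2 of these sites the reads missing at the next cytosine in a tissue were thus about as many as those methylated at the site, and at the third level and ratio together fell short of 100 % in ileum, testis, mammary parenchyma and frontal cortex. Over the 15 sites, the sum of level and ratio was off 100 % by a median of 10.2 points, and at chr29:19417795 by 1.18 points (median over the tissues of a site, from 0.667 to 155 points). The bases on those reads were not analysed here. Whether the animals differed in sequence there was not tested.

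**Figure D4:**
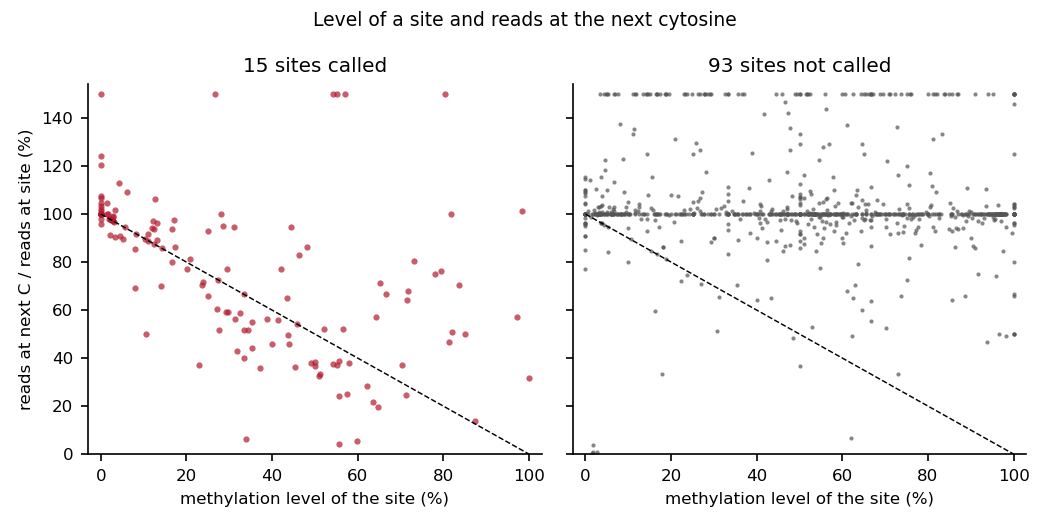
Methylation level of a site (horizontal axis, %) and reads at the next cytosine as a percentage of those at the site (vertical axis), with 1 point per site and tissue and ratios above 150 % drawn at 150. The dashed line is 100 % minus the level. Left, the 15 sites called with fewer reads in the highest tissue fall with the level; right, the 93 sites not called lie mostly near 100 %.

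The letters around a site gave a related comparison, also added after the data were seen. For 143 variable sites the 10 letters on each side were known from the deposited cytosines. At 17 of them (11.9 %) the same 21 letters with a G after the cytosine, and so a CG in its place, occurred at another covered site, against 5.0 % of 59943 other non-CG sites. The unchanged 21 letters occurred elsewhere for 18.9 % of the variable and 18.3 % of the other sites. Several CG copies could exist for a site. Taking 1 copy for each site, the one covered in the most tissues with ties settled by position, their mean levels had a median of 74.1 % (9.1 to 92.5 %). For the sites at chr28:39314406 (A12G) and chr9:88597216 (C12G), positions counted from the 5′ end, with 6 and 55 CG copies, the letters of the site and of the copies were as follows, with the site and the next letter in capitals.
chr28:39314406: gagaggtgtcCAggcatcggg
its CG copies: gagaggtgtcCGggcatcggg
chr9:88597216: ttccacattgCCaagcacccc
its CG copies: ttccacattgCGaagcacccc

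The first of these sites ranged from 13.8 % in abomasum to 71.6 % in ileum, and the CG copy taken for it had a mean of 87.7 %. The second ranged from 27.8 % in testis to 81.0 % in skeletal muscle, with 92.5 % at the copy taken. Whether reads of the CG copies were placed at the variable sites was not tested.

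Several variable sites had like letters at distant places. Over the letters known within 20 bases of each site, 25 pairs more than 1000 bp apart were at least 80 % identical, involving 35 sites, and the tissue patterns of 4 pairs had an r of 0.8 or more (median over the 25 pairs 0.605). The pair with the most similar levels, chosen after its values were seen, lay on chromosomes 17 and 4 and was 97.6 % identical over 41 letters. A pair identical over the 30 letters known in both, at chr11:65329361 and chr12:79833538, had an r of 0.84 and differed by up to 40.3 points. The sequences of the first pair, with T6A and G47T between them counted from the 5′ end, are these.
chr17:36875338-36875387, forward: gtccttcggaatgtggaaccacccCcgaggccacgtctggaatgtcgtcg
chr4:66531525-66531574, forward: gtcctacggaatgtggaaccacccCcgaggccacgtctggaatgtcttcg

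The levels at both places were almost equal in every tissue. At chr17:36875362 the level was 78.5 % in ileum, 74.0 % in testis, 59.8 % in rumen, 55.7 % in nucleated blood cells, 25.3 % in skeletal muscle and 19.5 % in frontal cortex. It was 5.93 % in abomasum, 3.38 % in uterus, 2.88 % in mammary parenchyma and 2.25 % in the lactating mammary gland. At chr4:66531549 ileum had 79.8 %, testis 76.5 %, rumen 58.7 %, nucleated blood cells 58.6 %, frontal cortex 21.8 % and skeletal muscle 19.0 %, and the other 4 tissues 2.24 to 4.95 %. The largest difference between the places was 6.24 points and r was 0.997. Coverage was 430 reads or more in each tissue at the first and 767 or more at the second. These levels were not near steps in every tissue.

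**Figure D5:**
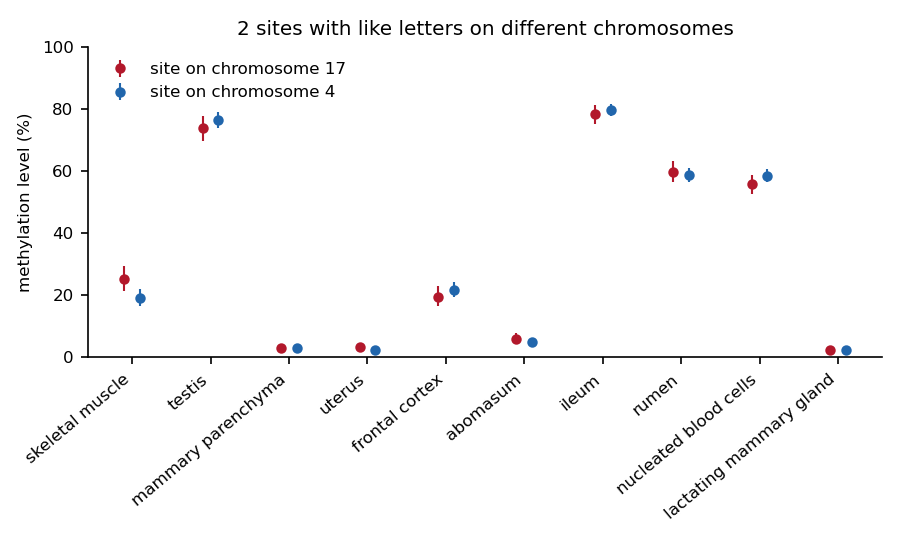
Methylation level (vertical axis, %) in each tissue (horizontal axis) at the variable CCG sites on chromosomes 17 and 4 with like letters. Points are single libraries and bars 95 % Wilson intervals. Both sites were highest in ileum (78.5 and 79.8 %) and at or below 5.93 % in the same 4 tissues.

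A cytosine directly before an MspI site was frequent among the variable sites. The letters CCCGG, with the site as their first C and read on the strand of the site, were found at 51 of 246 variable sites with known letters (20.7 %) and at 3.51 % of the other non-CG sites. On the forward strand they made up 26.9 % of the variable and 3.88 % of the other sites, and on the reverse strand 7.59 and 3.19 %. The first C of CCGG itself was found at 4.78 % of the variable and 7.39 % of the other sites.

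These letters went with the sites where abomasum was alone at the low end. Of those 42 sites, 34 were on the forward strand and 22 had CCCGG. At 24 of the 42 the other 9 tissues all had 80 % or more, and abomasum had 22.2 to 50 % on 8 to 27 reads. Of these 24 sites 23 were on the forward strand and 16 had CCCGG. At the 15 with a tested next cytosine, none was called with fewer reads there in the highest tissue. With so few reads in abomasum, such a call could be missed. At chr3:55619039, shown above, abomasum had 50 % of 12 reads. Without the sites where abomasum was alone, CCCGG was found at 14.1 % of 192 sites with known letters.

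The 24 sites belonged to a larger set of high non-CG sites. In all, 455 covered non-CG sites had 80 % or more in the 9 tissues other than abomasum, of which 91.0 % were on the forward strand and 73.6 % had CCCGG. Abomasum had a median level of 85.7 % and a median of 12 reads there, and 50 % or less at 25 of the 455. Most sites of this set thus were high in abomasum too. How reads that end at an MspI site entered these levels was not tested.

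Finally, the CG site nearest to each variable site was compared. A covered CG within 50 bp was present at 236 sites, at a median distance of 5 bp and at 191 of them on the same strand, so that its reads can also cover the variable site. Its reads were tested between the highest and the lowest tissue of the variable site by the same exact test, adjusted over 74245 non-CG sites. The CG was called higher in the higher tissue at 41 sites (17.4 %, background 3.1 %) and lower at 15 (6.36 %, background 2.42 %), and there was no call at 180. These calls are not all separate, since close variable sites can share a CG. The sites at chr25:32367393, 32367399, 32367406 and 32367422 were all tested at the CG at 32367427. The lower calls include chr18:42370646, whose nearest CG is the opposite cytosine already described. The nearest CG of the variable sites had a median level of 67.0 %, against 43.2 % for all sites tested, and the part of this difference in level was not tested.

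Both directions were seen at deeply covered places. At chr25:32365035 the nearest CG, 7 bp away, had 54.0 % of 1441 reads in nucleated blood cells, where the site was highest, and 5.43 % of 1012 reads in the lactating mammary gland, where it was lowest (adjusted p = 1.25e-156, Fisher's exact test). At chr26:7036170 the CG 7 bp away fell between the same tissues from 68.0 to 11.1 %. At chr9:102682705 the CG had 3.81 % of 367 reads in nucleated blood cells, where the site was highest, and 39.9 % of 293 reads in testis (adjusted p = 1.56e-30, Fisher's exact test). At chr7:105905429, described above as high in the lactating mammary gland, the CG 7 bp away had 36.8 % there and 93.5 % in mammary parenchyma. With 20 or more reads at both cytosines in all tissues, 11 of 45 were called higher (background 5.94 %) and 8 lower (background 4.83 %).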

How the data were processed

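RRBS libraries of 10 cattle tissues, 1 per tissue, were analysed. The authors trimmed 49-bp paired reads, placed them on UMD3.1 by a SOAPaligner-based pipeline that ignores C to T changes, and kept cytosines with at least 8 reads. For each cytosine and strand the authors deposited the number of reads as a count, without normalization, and the methylation level as a fraction (methylated over all reads), beside 5 reference letters. How reads with another base than C or T were counted is not given in the sources used here. Binomial columns of the files were not used.

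Methylated reads were taken as level times reads, which was within 1e-06 of a whole number for all cytosines. Cytosines were joined by position and strand, and overlapping reference letters, which did not conflict, were joined into longer sequences. The reads summed over cytosines ranged from 16125651 (abomasum) to 40089443 (testis). At 8 reads, a single read changes a level by 12.5 points. Fisher's exact tests (two-sided) with Benjamini-Hochberg adjustment ran over all eligible sites and were tested on simulated data. Next cytosines under 8 reads are not recorded, and a ratio above 100 % was tested as 100 %.

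The members, lists and tests were chosen with earlier results of these data known. Sites named by rule were the 5 lone sites of widest gap at 20 or more reads and the 5 largest chains. For each tissue the site with 10 or more reads where it was alone by the widest gap was named, and 3 on each side of the threshold. The rule also asked for CHG sites whose opposite cytosine was itself a variable non-CG site, and none were found. Other sites were named after their values were seen. The alternatives were other coverage minimums, ranges, windows, correlations and tolerances, and leaving out tissues. Genes were not assigned, since no UMD3.1 annotation was used here. Computation was in Python 3.11.15, with pandas 2.3.3 and NumPy 2.4.6 for tables, Numba 0.67.0 and SciPy 1.17.1 for tests and intervals, and matplotlib 3.10.9 for plots.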

Additional observations from a re-analysis of the deposited data

Results flagged for a closer look

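Non-CG sites outside the autosomes entered no comparison, and the same range was found there. On the X chromosome 5 of 2084 covered non-CG sites (0.240 %) had a range of 50 points or more, and on unplaced sequences 9 of 1838 (0.490 %). None of the 33 covered mitochondrial sites did. The share on the autosomes was 0.276 %, and these shares were not tested against each other. With 1 library per tissue no group held enough samples to look for an outlying library.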

How the results depend on the processing

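No paired analysis was possible because each tissue had 1 library. The 263 sites became 63 at 20 reads, 446 at a range of 40 points and 132 at 60 points, and 192 to 258 when single tissues were left out (lowest without abomasum, then 210 without testis). Sites with a like neighbour (33) became 54 when any non-CG site with a range of 25 points could be the neighbour, and 9 of 63 at 20 reads. Without abomasum they were 27. Sites with all levels near a step (29) became 7 with tolerances of 5 and 10 points, 64 with 15 and 20 points, 1 at 20 reads and 18 without abomasum, so the number depends on the tolerance and the depth. The 1 opposite cytosine called lower was not called (0) against the other 9 tissues summed, and was called without abomasum. At 20 reads it was not among the 9 sites left to test, which gave 0 calls. The nearest CG was called higher at 11 sites of 45 at 20 reads and at 14 of 236 against the other 9 summed (41 before), with backgrounds of 5.94 and 1.31 %, and lower at 8 and 6 (15 before), with backgrounds of 4.83 and 1.86 %; without abomasum these were 33 and 10. Fewer reads at the next cytosine (15) were called at 23 sites with unrecorded cytosines taken as 7 reads, at 6 of 34 at 20 reads (background 1.16 %) and at 11 without abomasum, and more reads (3) at 1 site without abomasum. A CG version of the letters was found for 26 sites with 17 letters (16.2 %, others 8.90 %) and 12 with 25 letters (9.16 %, others 3.78 %), against 17 with 21. CCCGG was at 27 rather than 51 sites without those where abomasum was alone. Of 53 alternative values 33 stayed within 1.5 times the count reported. Without replicate libraries, neither these counts nor the intervals cover variation between animals or libraries. The causes of the changes were not tested, and at 20 reads fewer sites were left.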
